A study of Mus musculus with 12 samples.

Results

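The genes described here are 47 genes of DNA replication and deoxynucleotide supply, taken by name from the 32742 genes of the deposited expression table. All 47 names matched 1 row each, and all 47 passed the filter on low counts that left 21129 genes. RNA was measured in primary astrocytes cultured from the midbrain of mouse pups of postnatal day 0 to 3, labelled WT or Arrb2-KO, a knockout of the gene of beta-arrestin 2, a scaffold protein of receptor signalling. Cultures of each genotype, labelled Day 14, received PBS, the saline control, or MPP+ at 500 µM for 24 h. MPP+ is the active metabolite of the neurotoxin MPTP and an inhibitor of complex I of the respiratory chain. Each of the 4 groups (wild type in PBS, wild type in MPP+, knockout in PBS, knockout in MPP+) holds 3 samples. The labels give neither the knockout allele nor the strain, and nothing in them says whether the 3 samples of a group came from separate animals, so p-values measure the spread between these samples, which may be technical.

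Before a cell divides, the origin recognition complex marks start sites on DNA, and Cdc6 and Cdt1 load the MCM2-7 helicase there, a step called licensing that geminin blocks by binding Cdt1. At the start of S phase Cdc45 and the GINS complex turn the helicase on, polymerases alpha, epsilon and delta copy the strands with the sliding clamp PCNA, and ribonucleotide reductase, thymidylate synthase and thymidine kinase supply the building blocks. Many of these genes are classical targets of E2F transcription factors, which the retinoblastoma protein holds in check, and newborn glia divide readily in culture.

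Total counts ran from 64249029 to 69865569 per library, and the lowest count of any of the 47 genes in a library was 18. Arrb2 RNA was lower in the knockout but present, at 31.0, 26.4 and 21.7 CPM, counts scaled to library size, in wild type in PBS against 14.4, 16.1 and 13.8 in the knockout. The purified astrocytes were checked by staining for Gfap protein, per the labels. On the third principal component replicate 1 of wild type in MPP+ lay away from its group, at 34.4 against -51.9 and -27.0. Y-linked RNA summed to between 0 and 0.23 CPM in the wild-type libraries and to between 39.4 and 131 CPM in the knockout libraries, so genotype and the sex of the pups cannot be told apart here. Replicate 1 of both knockout groups held less Y-linked RNA than the other 4 knockout libraries, with Ddx3y at 16.7 and 18.9 CPM against 56.1 to 59.2 CPM. Astrocyte marker genes (10 of 10 detected) summed to between 5810 and 6660 CPM in wild type in PBS and to between 1820 and 2420 CPM in wild type in MPP+. No gene of the 8 cell type marker lists was at 0 in every sample, though Slc17a6 of the neuron list held only 4 counts, all in wild type in PBS. In bulk RNA, fewer cells of a type and less RNA per cell cannot be told apart.

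Promoter sequence is shown for the MCM helicase genes, because the subunits of this 1 complex separated into a set that fell with MPP+ and a pair that did not. RefSeq promoters on GRCm38.p6 were found for 39 of the 47 genes. Entries were not found for Gmnn, Pole, Gins1, Prim2, Gins4, Mcm4, Gins2 and Rfc2. The last 170 bases before the start are printed 5′ to 3′ on the coding strand, with capitals for E2F-type motifs, searched as TTTCCCGC, TTTGGCGC, TTTCGCGC and TTTGCCGC on both strands. The stretches lie at chr6:88898781-88898950 (minus strand) for Mcm2, chr1:20820313-20820482 (minus) for Mcm3, chr8:75109339-75109508 (plus) for Mcm5, chr1:128359706-128359875 (minus) for Mcm6 and chr5:138171884-138172053 (minus) for Mcm7.
Mcm2: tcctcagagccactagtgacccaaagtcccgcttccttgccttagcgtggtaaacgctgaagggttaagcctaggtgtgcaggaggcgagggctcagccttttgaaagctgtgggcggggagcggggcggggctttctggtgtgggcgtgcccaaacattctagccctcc
Mcm3: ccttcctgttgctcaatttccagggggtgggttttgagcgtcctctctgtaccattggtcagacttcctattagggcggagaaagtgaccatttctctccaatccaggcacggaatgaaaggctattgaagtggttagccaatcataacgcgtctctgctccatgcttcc
Mcm5: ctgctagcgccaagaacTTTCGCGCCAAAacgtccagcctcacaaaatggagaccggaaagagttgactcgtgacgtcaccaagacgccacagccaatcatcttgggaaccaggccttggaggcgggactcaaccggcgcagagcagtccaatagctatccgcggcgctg
Mcm6: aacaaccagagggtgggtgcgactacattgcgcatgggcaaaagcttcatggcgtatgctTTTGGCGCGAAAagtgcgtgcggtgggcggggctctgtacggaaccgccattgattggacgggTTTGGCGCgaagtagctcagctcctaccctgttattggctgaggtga
Mcm7: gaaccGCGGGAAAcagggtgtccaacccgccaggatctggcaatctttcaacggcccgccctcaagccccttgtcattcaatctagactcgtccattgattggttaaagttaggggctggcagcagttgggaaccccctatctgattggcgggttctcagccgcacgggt
The Mcm5 stretch held 2 overlapping motifs on opposite strands, the Mcm6 stretch held 3, of which 2 overlap, and the Mcm7 stretch held 1. Mcm7 has a second listed promoter, which held none before the start. The Mcm2 and Mcm3 stretches held none. Once the 50 bases after the start were included, Mcm3 held TTTCCCGC and TTTGGCGC, and Mcm7 gained TTTCGCGC, while Mcm2 still held none. Among all members with an entry, 9 of 39 genes (23.1%) held a motif in the 250 bases before the start: Cdc6, Gins3, Mcm5, Mcm6, Mcm7, Orc1, Orc3, Pola1 and Rfc3. Among all 27025 genes of the promoter table the share was 2.16%, made up of 1.03% for TTTCCCGC, 0.485% for TTTGGCGC, 0.3% for TTTCGCGC and 0.392% for TTTGCCGC, with some genes holding more than 1. The box CCAAT stood in 61.5% of the members and 37.5% of all genes, and TTTGAA, the core of the element bound by the DREAM repressor complex, in 12.8% and 18.3%. With the 50 bases after the start included, the E2F share was 38.5% of the members and 2.6% of all genes. Of the 9 members with a motif before the start 6 fell with MPP+ in wild type (median log2 fold change -0.73), and of the 30 without one 23 fell (median -0.93). In the knockout 6 of the 9 fell (median -1.16), as did 20 of the 30 (median -1.06). All 8 members without an entry fell in both genotypes (medians -1.49 and -1.44). Over all genes 28.4% fell in wild type and 24.7% in the knockout. The split uses only the bases before the start, so Mcm3, Lig1 and Pole2, with a motif only in the wider stretch, count as without one. These matches are a description of letters, not of bound sites.

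MPP+ lowered most of the replication genes in both genotypes. In wild type 37 of 47 fell and 4 rose at an adjusted p under 0.05 (edgeR quasi-likelihood test, Benjamini-Hochberg over 21129 genes), where 28.4% of all genes tested fell and 26.8% rose. In the knockout 34 of 47 fell and 4 rose, against 24.7% and 23.1% of all genes. The median log2 fold change of the 47 was -1.02 in wild type and -1.07 in the knockout, against -0.04 for all genes in each. The calls overlapped, with 33 genes lower in both genotypes and 4 (Orc2, Orc3, Orc4 and Pold3) higher in both. Mcm2, Mcm7, Cdt1, Pold2 and Rpa3 were called in neither genotype. Without replicate 1 of both knockout groups the MPP+ calls of Orc1 and Orc2 in wild type and of Gins2, Rfc4 and Fen1 in the knockout were lost, and no other of the 47 changed. Astrocyte markers fell with MPP+ too (9 of 10 in each genotype, Gfap 11.1-fold and 8.2-fold), and their part in the result was not tested.

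**Figure D1:**
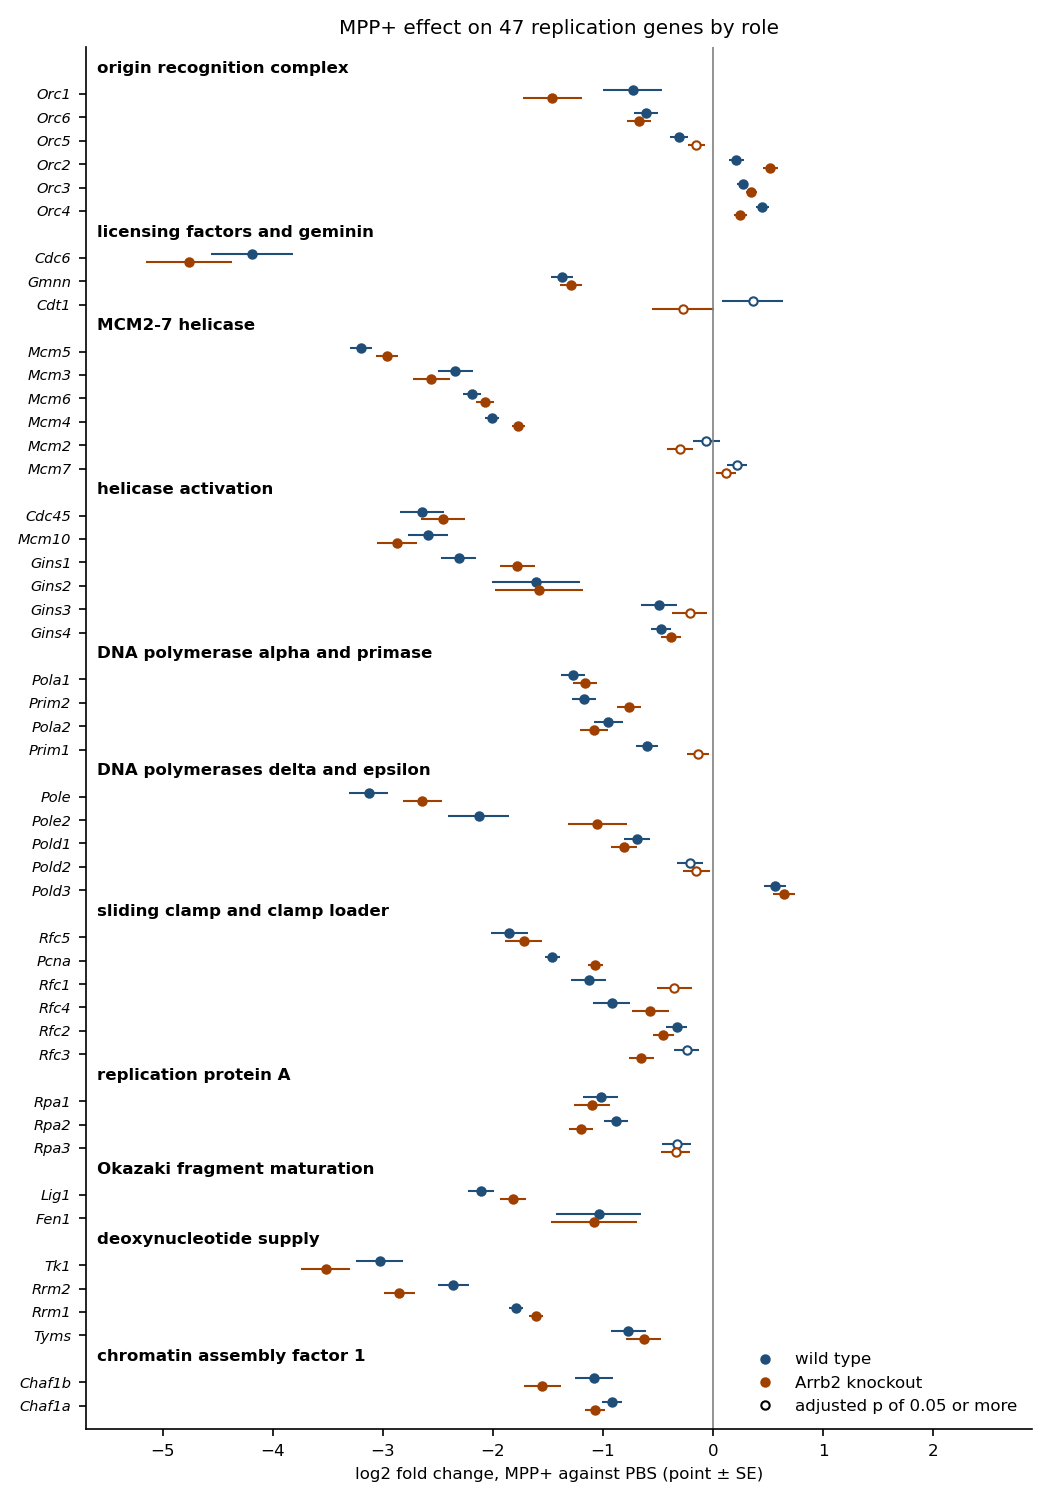
Log2 fold change of MPP+ against PBS (horizontal axis, point ± SE, 3 samples a group) for the 47 genes grouped by role, in wild type (blue) and the Arrb2 knockout (brown); open points have an adjusted p of 0.05 or more. Cdc6, at -4.19 and -4.76, lies farthest to the left, while Orc2, Orc3, Orc4 and Pold3 lie to the right of 0 in both genotypes.

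The size of the fall was uneven. In wild type 24 genes fell at least 2-fold and 13 at least 4-fold, and in the knockout 26 and 9. The matching counts over all genes were not made, so these numbers describe only the spread within the 47. The genes Mcm3, Mcm5, Mcm6, Mcm10, Cdc45, Cdc6, Pole, Rrm2 and Tk1 fell at least 4-fold in both genotypes. As a share of all gene counts the 47 genes together took 0.174% ± 0.00354 (SD, n = 3) in wild type in PBS and 0.0933% ± 0.00233 in MPP+. In the knockout they took 0.155% ± 0.00216 and 0.0905% ± 0.00143. The PBS and MPP+ samples did not overlap in this share in either genotype.

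The origin recognition complex was split, with 3 subunits lower and 3 higher in wild type. Orc1, the subunit whose amount varies through the cell cycle in mammalian cells, stood at 3.01, 1.54 and 2.45 CPM in wild type in PBS and 1.24, 1.71 and 1.28 CPM in MPP+. The wild-type groups overlapped, and the fall of 1.65-fold (log2 -0.73 ± 0.27 SE, adjusted p = 0.0376) lost its call under 8 of 22 alternative settings, among them without wild-type PBS replicate 1 or 3 or wild-type MPP+ replicate 1 or 3. In the knockout Orc1 went from 3.31, 2.75 and 2.67 CPM to 0.964, 1.3 and 0.914 CPM without overlap, a fall of 2.75-fold (adjusted p = 0.000927). Orc1 shares 10.8% of its exon bases with Gm12743 on the opposite strand, and the sources do not say if strand was used in counting.

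Orc4 rose. Its level was 44.5, 41.6 and 40.1 CPM in wild type in PBS and 55.0, 59.9 and 57.2 CPM in MPP+, 1.36-fold higher with no overlap (log2 0.45 ± 0.061, adjusted p = 7.22e-05). The knockout went from 50.8, 46.8 and 49.1 CPM to 58.9, 56.2 and 58.8 CPM, 1.19-fold higher. Orc3 rose 1.20-fold in wild type and 1.28-fold in the knockout, and Orc2 rose 1.15-fold and 1.43-fold. The wild-type rise of Orc2 (adjusted p = 0.023) lost its call under 9 of 22 settings, among them without wild-type PBS replicate 1 or 2, wild-type MPP+ replicate 1 or any 1 of the knockout PBS replicates, and 29.8% of its exon bases overlap Nif3l1 on the opposite strand. Orc6 fell in both genotypes (log2 -0.61 ± 0.11 and -0.67 ± 0.11), and Orc5 fell in wild type (log2 -0.31 ± 0.080) with an adjusted p of 0.154 in the knockout.

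Of the licensing factors, Cdc6, the ATPase that brings the helicase to origins, fell most of all 47 genes. It stood at 9.11, 12.1 and 10.8 CPM in wild type in PBS and at 0.414, 0.982 and 0.354 CPM in MPP+. The knockout libraries stood at 11.2, 6.89 and 7.12 CPM and then at 0.298, 0.36 and 0.265 CPM. Every MPP+ library lay under every PBS library, with falls of 18.2-fold (log2 -4.19 ± 0.37, adjusted p = 2.02e-06) and 27.1-fold (log2 -4.76 ± 0.39, adjusted p = 1.53e-06).

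Cdt1, which works beside Cdc6, did not pass the test. Its wild-type values were 5.02, 7.49 and 6.4 CPM without MPP+ and 4.43, 11.1 and 8.66 CPM with it, and its knockout values were 6.97, 5.64 and 5.81 CPM and 4.58, 5.79 and 4.94 CPM. The groups overlapped in both genotypes, and the MPP+ libraries of wild type differed among themselves more than the groups did. Without wild-type MPP+ replicate 1, the lowest of them, the wild-type rise was called (adjusted p = 0.0164, log2 0.65, against 0.36 with all libraries).

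Gmnn, which encodes geminin, fell from 15, 15.5 and 16.7 CPM to 6.41, 5.79 and 6.11 CPM in wild type. The knockout fell from 13.9, 14.0 and 15 CPM to 5.95, 5.29 and 6.32 CPM. These were falls of 2.58-fold and 2.45-fold without overlap (log2 -1.37 ± 0.10 and -1.29 ± 0.10). Per length, in FPKM, Gmnn RNA was between 4.31 and 6.44 times Cdt1 RNA in the 6 PBS libraries and between 1.12 and 3.13 times in the 6 MPP+ libraries. The RNA levels of the 2 genes thus lay closer in every MPP+ library, which says nothing of their proteins.

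The MCM2-7 helicase showed the sharpest split inside 1 complex. Mcm3, Mcm4, Mcm5 and Mcm6 fell in both genotypes, while Mcm2 and Mcm7 did not pass the test in either. Mcm5, whose subunit forms with Mcm2 the gate through which the ring opens, went from 39.5, 37.6 and 39.2 CPM to 4.31, 3.67 and 4.69 CPM in wild type. The knockout went from 38.3, 33.2 and 33.6 CPM to 4.35, 4.66 and 4.49 CPM. The falls were 9.17-fold (log2 -3.20 ± 0.10, adjusted p = 1.93e-09) and 7.79-fold (log2 -2.96 ± 0.10), and no MPP+ library came near a PBS library.

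Mcm3 stood at 53.8, 52.0 and 50.9 CPM in wild type in PBS and at 9.01, 12.7 and 9.26 CPM in MPP+, a fall of 5.06-fold, and the knockout fell 5.91-fold, from 45.1, 40.7 and 41.9 CPM to 7.04, 8.87 and 5.69 CPM. Mcm6 stood at 88.0, 87.9 and 81.6 CPM and then at 21.0, 17.7 and 17.7 CPM, a fall of 4.56-fold. Mcm4, which with Mcm6 and Mcm7 makes up the part of the ring with the strongest helicase activity in vitro, fell 4.03-fold, from 78.8, 85.6 and 83.2 CPM to 19.8, 21.4 and 20.2 CPM. In the knockout Mcm6 fell 4.19-fold and Mcm4 3.41-fold. None of these comparisons showed overlap.

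Mcm2 stood at 47, 52.5 and 50.8 CPM in wild type in PBS and at 41.3, 57.4 and 45.5 CPM in MPP+. Its knockout values were 48.9, 41.7 and 46.8 CPM and 37.1, 41.2 and 33.5 CPM. The wild-type groups overlapped (log2 -0.06 ± 0.12, adjusted p = 0.701), and the knockout groups did not, with an adjusted p of 0.0618 that passed the threshold under 6 of 22 settings, among them without wild-type MPP+ replicate 1 or 2 or knockout MPP+ replicate 2. Mcm7 stood at 61.0, 71.4 and 61.4 CPM and then at 69.5, 77.0 and 79.7 CPM in wild type, overlapping by 1 PBS library. Its knockout values, 60.6, 53.4 and 51.6 CPM and then 59.6, 64.6 and 56.3 CPM, overlapped too. The estimates for Mcm7 were log2 0.22 ± 0.090 (adjusted p = 0.0533, called higher under 5 of 22 settings, among them without wild-type PBS replicate 2 or MPP+ replicate 1) and 0.12 ± 0.090 (adjusted p = 0.283).

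The ratio of the subunits shifted with this. In FPKM, a unit corrected for length, the highest subunit was between 2.77 and 3.26 times the lowest in the 6 PBS libraries, with Mcm4 highest and Mcm2 lowest in each. In the 6 MPP+ libraries it was between 11.3 and 19.1 times, with Mcm7 highest and Mcm5 lowest in each. Of the Mcm7 exon bases 7.25% overlap Ap4m1 on the opposite strand.

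**Figure D2:**
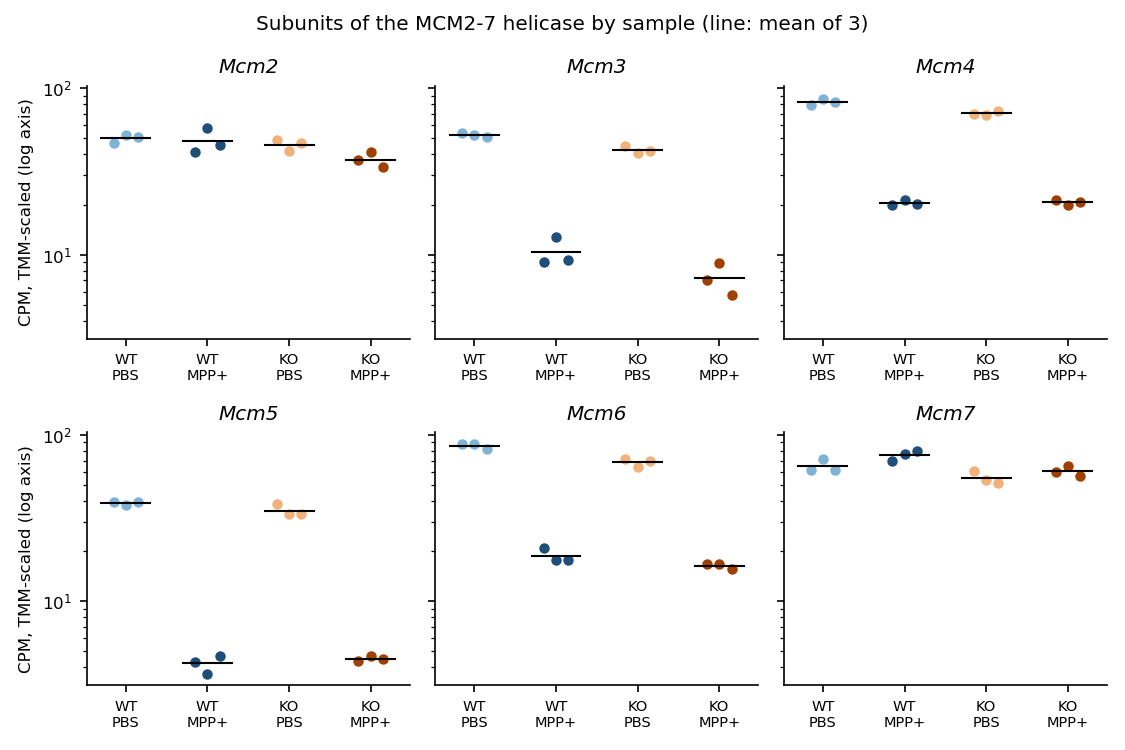
Level of each MCM2-7 subunit in CPM (vertical log axis, TMM-scaled) in the 12 samples by group, with a line at the mean of 3. Mcm3, Mcm4, Mcm5 and Mcm6 are lower in every MPP+ sample than in every PBS sample of both genotypes, while Mcm2 and Mcm7 stay between 33.5 and 79.7 CPM throughout.

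All 6 helicase activation genes fell in wild type, and 5 fell in the knockout. Cdc45, the helicase partner, stood at 10.8, 10.3 and 12.4 CPM in wild type in PBS and at 1.79, 2.09 and 1.52 CPM in MPP+, 6.22-fold lower (log2 -2.64 ± 0.20). The knockout went from 10.5, 11.1 and 8.71 CPM to 1.98, 1.37 and 2.18 CPM, 5.48-fold lower, with no overlap in either genotype. Mcm10, which helps to start unwinding, fell 6.01-fold and 7.30-fold.

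The 4 GINS subunits, which act as 1 complex, fell by different amounts. Gins1 fell 4.96-fold in wild type and 3.44-fold in the knockout. Gins4 fell only 1.39-fold and 1.30-fold, from 26.8, 27.8 and 28.3 CPM to 20.2, 21.2 and 18.4 CPM in wild type and from 27.9, 29.9 and 26.9 CPM to 23.9, 21.5 and 19.5 CPM in the knockout. Gins3 fell 1.40-fold in wild type (adjusted p = 0.0234, lost under 4 of 22 settings, among them without wild-type PBS replicate 1 or 2 or wild-type MPP+ replicate 2) and stood at an adjusted p of 0.322 in the knockout. Gins2 fell 3.05-fold and 2.99-fold, but 67.3% of its exon bases overlap Gse1 on the opposite strand, and its MPP+ libraries ranged from 4.21 to 13.1 CPM. The knockout call of Gins2 was lost without replicate 1 of both knockout groups (adjusted p = 0.0877).

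All 4 genes of the polymerase that starts each strand fell in wild type. Pola1, the catalytic subunit of polymerase alpha, stood at 37.8, 39.8 and 35.3 CPM without MPP+ and at 13.3, 15.5 and 18.0 CPM with it, 2.41-fold lower (log2 -1.27 ± 0.11). The knockout went from 30.9, 28.5 and 33.3 CPM to 13.4, 14.1 and 14.1 CPM, 2.23-fold lower. Neither genotype showed overlap. Prim1, the catalytic subunit of primase, fell from 13.9, 13.6 and 13.3 CPM to 9.46, 8.05 and 9.32 CPM in wild type (log2 -0.60 ± 0.10). Its knockout values, 12, 10.1 and 9.94 CPM and then 9.61, 9.9 and 9.55 CPM, did not pass the test (adjusted p = 0.295). Pola2 and Prim2 fell in both genotypes, by between 1.69-fold and 2.25-fold.

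Polymerases epsilon and delta differed. Pole, the catalytic subunit of the leading-strand polymerase, went from 26.0, 30.7 and 24.6 CPM to 4.11, 2.64 and 2.54 CPM in wild type, 8.74-fold lower (log2 -3.13 ± 0.18, adjusted p = 9.71e-08). In the knockout it went from 21.8, 21.1 and 22.4 CPM to 3.83, 3.03 and 3.64 CPM, 6.22-fold lower. Its partner Pole2 fell 4.36-fold and 2.07-fold. Pold1, the catalytic subunit of the lagging-strand polymerase, fell 1.61-fold and 1.75-fold, and Pold2 stood at adjusted p of 0.172 (called without wild-type MPP+ replicate 2) and 0.338.

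Pold3, an accessory subunit of polymerase delta also used in break-induced repair, rose. Wild type went from 24.8, 25.8 and 28.7 CPM to 38.7, 37.2 and 41.4 CPM, and the knockout from 19.9, 23.0 and 20.3 CPM to 30.6, 38.2 and 30.5 CPM. These rises of 1.48-fold (adjusted p = 0.000698) and 1.57-fold (adjusted p = 0.000316) came without overlap. In FPKM the ratio of Pole to Pold1 lay between 0.837 and 0.91 in the 6 PBS libraries and between 0.116 and 0.286 in the 6 MPP+ libraries.

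Pcna, the sliding clamp and the most abundant of the 47 per length at 49.6 ± 2.77 FPKM (SD, n = 3) in wild type in PBS, fell in both genotypes. Its CPM values were 128, 128 and 141 in wild type in PBS and 47.4, 50.9 and 46.0 in MPP+. In the knockout they were 111, 111 and 120 and then 57.8, 53.8 and 51.1. The falls were 2.75-fold (log2 -1.46 ± 0.068) and 2.10-fold (log2 -1.07 ± 0.068), without overlap. Counts of the processed copy Pcna-ps2 are listed apart, and the sources do not say how the authors split reads between them.

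The clamp loader subunits Rfc1 to Rfc5 fell less evenly. Rfc5 fell 3.61-fold in wild type, from 13, 15.1 and 11.3 CPM to 3.5, 3.97 and 3.43 CPM, and 3.30-fold in the knockout, from 12.6, 10.8 and 11.7 CPM to 4.37, 2.91 and 3.37 CPM. Rfc3 stood at 14.1, 14.2 and 13.6 CPM and then 11.2, 11.5 and 12.7 CPM in wild type, not overlapping but with an adjusted p of 0.0817. The knockout of Rfc3 fell 1.57-fold, from 17.5, 15.9 and 14.0 CPM to 9.65, 11.2 and 9.25 CPM. Rfc1, the large subunit, fell 2.19-fold in wild type with uneven MPP+ libraries of 55.9, 34.8 and 32.4 CPM, the first from the library that stands apart. Its knockout MPP+ libraries held 68.0, 59.1 and 64.4 CPM (adjusted p = 0.0923 for the MPP+ effect, called without wild-type MPP+ replicate 1). Rfc4 fell 1.89-fold and 1.48-fold, with the knockout call lost without knockout PBS or MPP+ replicate 1 or 3, and Rfc2 fell 1.25-fold and 1.37-fold. Exon bases shared with genes on the opposite strand come to 10.7% for Rfc5 (Wsb2), 12.7% for Rfc4 (Eif4a2) and 15.1% for Rfc2 (Lat2).

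Replication protein A coats single-stranded DNA. Rpa1, its large subunit, stood at 120, 123 and 176 CPM in wild type in PBS and at 65.4, 69.1 and 72.5 CPM in MPP+, 2.02-fold lower. Its knockout values were 122, 176 and 174 CPM and then 75.9, 73.0 and 72.3 CPM, 2.14-fold lower. The PBS libraries of both genotypes spread widely, with no overlap with MPP+. Rpa3, the small subunit, went from 15.6, 17.8 and 15.8 CPM to 12.3, 15.1 and 11.9 CPM in wild type and from 17.6, 17.9 and 16.5 CPM to 15.2, 14.7 and 11.2 CPM in the knockout. The groups did not overlap, and both adjusted p were 0.0515, with a call under 6 of 22 settings in each genotype, among them without wild-type MPP+ replicate 2 in both.

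Of the enzymes that finish Okazaki fragments, Lig1, the DNA ligase, fell 4.33-fold in wild type, from 48.1, 45.6 and 54.9 CPM to 12.4, 11.9 and 9.95 CPM. The knockout fell 3.53-fold, from 39.9, 39.2 and 34.6 CPM to 11.3, 11.5 and 9.39 CPM. Fen1, the flap nuclease, varied widely between replicates. It stood at 20.9, 22.2 and 10.6 CPM in wild type in PBS, where replicate 3 met the MPP+ values of 10.3, 5.14 and 10.6 CPM. In the knockout it stood at 11, 17.8 and 17.5 CPM and then at 5.5, 5.06 and 11.4 CPM, overlapping as well. Its falls of 2.06-fold and 2.11-fold (adjusted p = 0.0403 and 0.0409) lost their calls under 8 and 12 of 22 settings. The wild-type call was lost without wild-type PBS replicate 1 or 2 or any 1 of the wild-type MPP+ replicates, and the knockout call without wild-type PBS replicate 1 or 2, knockout PBS replicate 2 or 3, or knockout MPP+ replicate 1 or 2.

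All 4 genes of deoxynucleotide supply fell in both genotypes. Tk1, the thymidine kinase of S phase, went from 18.1, 20.3 and 19.6 CPM to 2.1, 1.89 and 3.11 CPM in wild type, 8.16-fold lower (log2 -3.03 ± 0.21). In the knockout it went from 21.2, 20.4 and 17.6 CPM to 1.63, 1.36 and 2.18 CPM, 11.4-fold lower (log2 -3.52 ± 0.22). Rrm2, the small subunit of ribonucleotide reductase made in S phase, went from 107, 103 and 105 CPM to 17.6, 24.0 and 19.7 CPM in wild type and from 110, 80.6 and 87.7 CPM to 11.9, 14.3 and 12.4 CPM in the knockout. Its falls were 5.15-fold and 7.19-fold, and neither gene showed overlap.

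Rrm1, the large subunit, fell 3.45-fold and 3.04-fold. Tyms, thymidylate synthase, fell least of the 4, from 19.0, 16.3 and 13.1 CPM to 9.06, 8.85 and 10.4 CPM in wild type (1.71-fold) and from 12.6, 17.6 and 16.9 CPM to 9.96, 10.4 and 10.0 CPM in the knockout (1.55-fold). The groups of Tyms did not overlap. Rrm2b, the p53-inducible small subunit that can take the place of Rrm2, is not among the 47 genes and rose 2.20-fold in wild type, from 36.7, 36.1 and 35.8 CPM to 72.7, 85.1 and 80.7 CPM. In FPKM Rrm2 was between 6.05 and 9.7 times Rrm2b in the PBS libraries and between 0.522 and 0.926 times in the MPP+ libraries, so their order changed in all 6 MPP+ libraries.

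Chromatin assembly factor 1 places histones on new DNA. Chaf1b stood at 8.51, 9.73 and 8.34 CPM in wild type in PBS and at 3.72, 4.76 and 4.12 CPM in MPP+, 2.11-fold lower, and in the knockout at 8.86, 6.52 and 7.93 CPM and then at 2.75, 3.07 and 2.15 CPM, 2.92-fold lower. Chaf1a stood at 30.3, 33.8 and 29.9 CPM and then 16.6, 16.8 and 16.2 CPM in wild type, 1.89-fold lower, and fell 2.10-fold in the knockout. Neither gene showed overlap between PBS and MPP+. Of the exon bases of Chaf1a, 52.5% overlap Ubxn6 on the opposite strand.

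The other genes of the pathway, in 4 lists, moved in both directions with MPP+ in wild type. Of 32 other replication proteins tested, 17 fell (53.1%) and 7 rose (21.9%), and in the knockout 20 fell (62.5%) and 6 rose (18.8%). Over all genes 28.4% fell and 26.8% rose in wild type, and 24.7% fell and 23.1% rose in the knockout. The largest falls were those of Dscc1 (373 counts in the 3 PBS libraries together and 4 in MPP+), a subunit of an alternative clamp loader, Clspn (log2 -4.03 ± 0.21), the checkpoint mediator claspin, and Asf1b (-3.18 ± 0.23), a histone chaperone. The largest rises were those of Pold4 (0.96 ± 0.16), Asf1a (0.82 ± 0.083) and Rif1 (0.76 ± 0.065), which restrains origin firing. Cdc7, the kinase that fires origins, stood at log2 -0.18 ± 0.13 (adjusted p = 0.272). The paralogues Asf1a and Asf1b moved in opposite directions.

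Of 33 other nucleotide enzymes, 8 fell (24.2%) and 12 rose (36.4%) in wild type, against 28.4% and 26.8% of all genes. In the knockout 9 fell (27.3%) and 10 rose (30.3%), against 24.7% and 23.1%. The median log2 fold change of this list was 0.09 and -0.02, near the -0.04 of all genes. Among those that fell were Cmpk2 (log2 -1.56 ± 0.17), a mitochondrial nucleotide kinase, and Adsl (-0.84 ± 0.17), adenylosuccinate lyase. Impdh1 (1.22 ± 0.11), the first enzyme of guanine nucleotide synthesis from IMP, Dctd (1.15 ± 0.12), the dCMP deaminase, and Rrm2b (1.14 ± 0.078) rose most. Dut, the dUTPase, stood at -0.22 ± 0.12 (adjusted p = 0.138).

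Among 25 E2F, Rb and G1/S regulators, 12 fell and 9 rose in wild type, where 28.4% of all genes fell and 26.8% rose. In the knockout 12 of the 25 fell and 8 rose, where 24.7% of all genes fell and 23.1% rose. E2f1, an activating E2F, rose from 28.5, 24.0 and 26.3 CPM to 40.7, 40.7 and 44.2 CPM in wild type (log2 0.67 ± 0.097, adjusted p = 0.00011). E2f7, a repressing E2F, went from 9.69, 10.0 and 10.5 CPM to 0.31, 0.0604 and 0.185 CPM (log2 -5.75 ± 0.61), and E2f8, its relative, fell 9-fold. E2f1 thus moved in the opposite direction to E2f7 and E2f8, with no overlap between PBS and MPP+.

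Ccna2 (log2 -4.19 ± 0.18), Foxm1 (-3.96 ± 0.24) and Ccne2 (-3.33 ± 0.21) fell, which encode cyclin A2, a mitotic transcription factor and an S-phase cyclin. Ccne1, the other cyclin E, stood at 0.02 ± 0.14 (adjusted p = 0.932). Cdkn1a, the p21 inhibitor, rose 2.93-fold, from 357, 319 and 340 CPM to 940, 1020 and 1020 CPM. Cdc25a rose (0.94 ± 0.14), as did Rb1 (0.74 ± 0.054), the retinoblastoma gene.

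**Figure D3:**
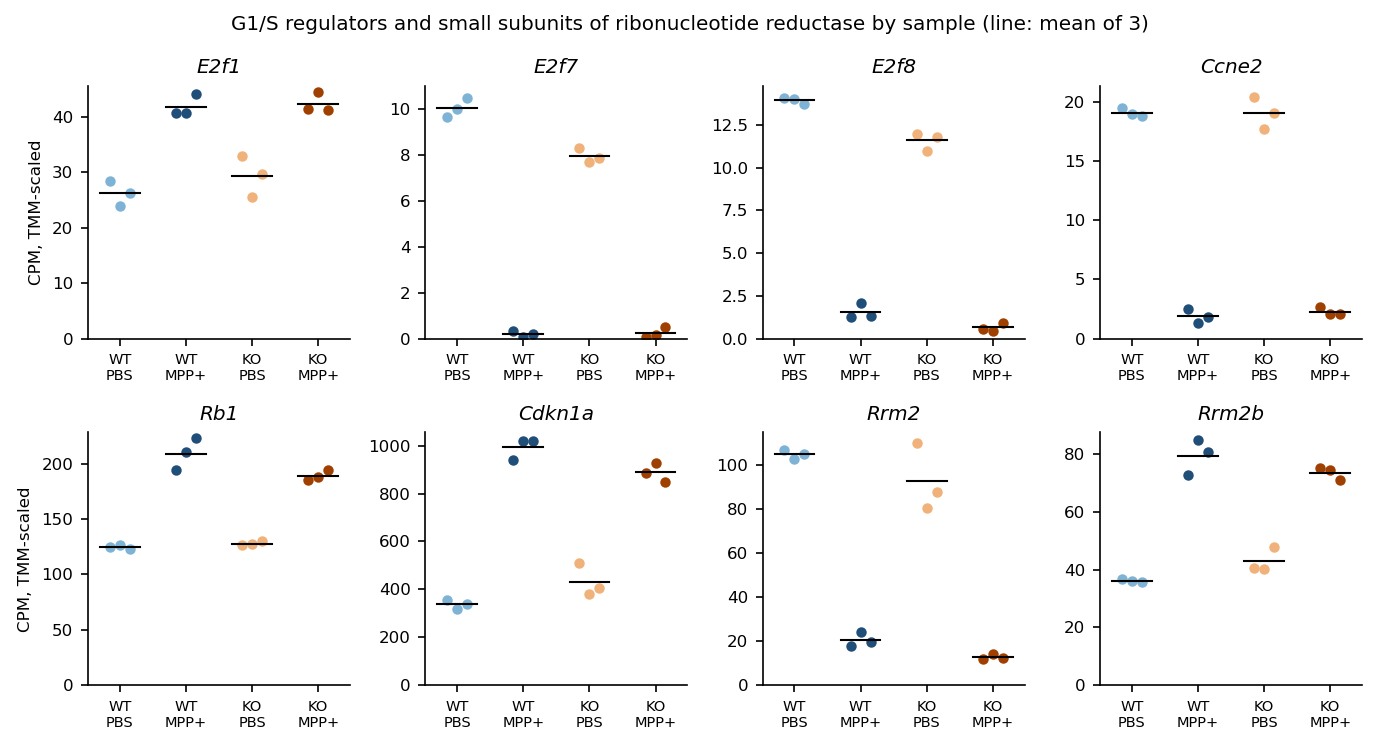
Levels in CPM (vertical linear axes from 0, TMM-scaled, a scale for each gene) of 6 G1/S regulators and of the ribonucleotide reductase small subunits Rrm2 and Rrm2b in the 12 samples, with a line at the mean of 3. E2f7, E2f8, Ccne2 and Rrm2 are lower and E2f1, Rb1, Cdkn1a and Rrm2b higher in every MPP+ sample than in every PBS sample of the same genotype.

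Of 25 genes of the replication checkpoint and fork repair, 14 fell (56.0%) and 7 rose (28.0%) in wild type, against 28.4% and 26.8% of all genes. In the knockout 13 fell (52.0%) and 7 rose (28.0%), against 24.7% and 23.1%. The Fanconi anaemia pair Fanci (log2 -4.59 ± 0.41) and Fancd2 (-4.35 ± 0.30) and the nuclease Exo1 (-3.94 ± 0.49) fell most. Dtl (-3.23 ± 0.15), part of a ligase that destroys Cdt1 protein in S phase, and the checkpoint kinase Chek1 (-2.01 ± 0.15) fell as well. Rad9a (1.13 ± 0.11), of the checkpoint clamp, Wee1 (0.78 ± 0.10), a kinase that holds back Cdk1, and Usp1 (0.63 ± 0.15) rose most.

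Few of the 47 genes differed between the genotypes in PBS, as was true of all genes tested. These comparisons use the same 12 samples as those of MPP+ and are not independent of them. In PBS 2 genes were lower (4.26%) and 1 higher (2.13%), where 5.66% of all genes were lower and 5.34% higher. Mcm4 was 1.17-fold lower (log2 -0.22 ± 0.058, adjusted p = 0.0307), at 69.8, 69.0 and 73.2 CPM in the knockout against 78.8, 85.6 and 83.2 CPM. Mcm6 was 1.26-fold lower (log2 -0.33 ± 0.078, adjusted p = 0.0208), at 71.7, 63.9 and 69.4 CPM against 88.0, 87.9 and 81.6 CPM. Orc4 was 1.16-fold higher (log2 0.22 ± 0.061, adjusted p = 0.0438). The groups did not overlap for any of these 3 genes. None of the 3 calls held under all 22 settings. The Orc4 call was lost under 16, among them without any 1 of the wild-type PBS or knockout MPP+ replicates, wild-type MPP+ replicate 3 or knockout PBS replicate 1 or 3. The number called lower ran from 0 to 8 across settings, with 8 under DESeq2 and 4 without wild-type MPP+ replicate 1 or 2. It was 0 without wild-type PBS replicate 2, and 1 without wild-type PBS replicate 1 or 3 or knockout PBS replicate 2 or 3. Without replicate 1 of both knockout groups 0 were called lower and 0 higher.

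Although few were called, 38 of the 47 estimates in PBS were below 0 (80.9%, against 50.2% of all genes), with a median of -0.14 and a range from -0.44 to 0.32. The summed share of counts in the knockout was 0.886 times that of wild type in PBS, and 0.97 times in MPP+. Fibroblast markers summed to between 1560 and 1980 CPM in the knockout in PBS against 502 to 1290 CPM in wild type, and microglia markers to between 211 and 263 CPM against 387 to 565 CPM. Astrocyte markers summed to between 4270 and 5400 CPM in the knockout in PBS against 5810 to 6660 CPM, and ependymal markers to between 166 and 236 CPM against 302 to 370 CPM. The part of these cell types in the genotype differences was not tested.

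Under MPP+ 10 of the 47 genes differed between the genotypes. Mcm3, Mcm7, Pold1, Rpa2, Rrm2, Chaf1a and Chaf1b were lower in the knockout (9.00% of all genes were lower), and Orc2, Prim2 and Rfc1 were higher (7.87% were higher). Rrm2 differed most among the 7, at 11.9, 14.3 and 12.4 CPM against 17.6, 24.0 and 19.7 CPM (log2 -0.67 ± 0.13, adjusted p = 0.00672), and it was the only 1 of the 10 calls that held under all 22 settings. Chaf1b was lower by a log2 of -0.66 ± 0.17 and Mcm3 by -0.52 ± 0.16. Rfc1 (log2 0.64 ± 0.16) and Prim2 (0.46 ± 0.11) were higher. The number called lower fell to 1 without wild-type MPP+ replicate 2 or 3 or knockout MPP+ replicate 1 or 3, and to 2 or 3 without a wild-type PBS library or knockout PBS replicate 2 or 3. The number called higher fell to 0 without wild-type MPP+ replicate 2 or 3 and to 1 without knockout MPP+ replicate 1 or 3. Without replicate 1 of both knockout groups 1 was called lower and 1 higher. Fibroblast markers summed to between 1290 and 1880 CPM in the knockout under MPP+ against 256 to 635 CPM in wild type.

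**Figure D4:**
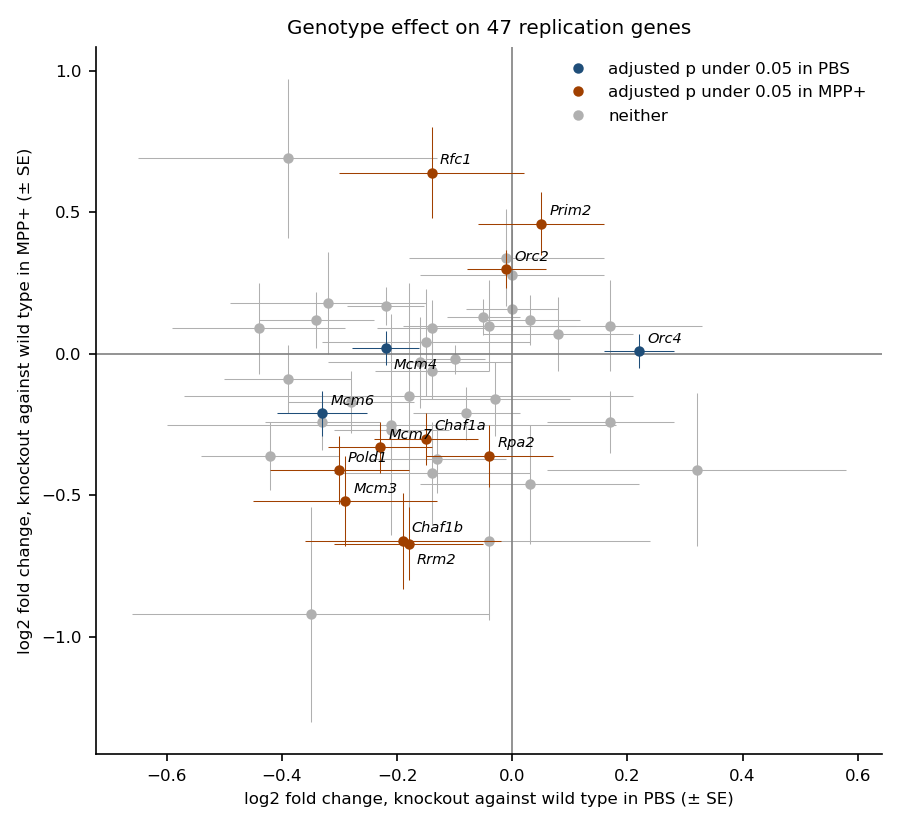
Log2 fold change of knockout against wild type in PBS (horizontal) and in MPP+ (vertical) for the 47 genes, points ± SE with 3 samples a group; named genes have an adjusted p under 0.05 in PBS (blue) or in MPP+ (brown). The points lie within -0.44 to 0.32 across and -0.92 to 0.69 up, and no gene passed the test in both treatments.

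Whether the size of the MPP+ effect depended on genotype was tested by the interaction term, and edgeR called 0 of the 47 genes, where 1.35% of all genes were called in either direction. At an unadjusted p under 0.05 there were 11 of 47, where 3699 of all 21129 genes tested reached it. DESeq2 called 4 (Orc2, Pcna, Rfc1 and Prim1), and edgeR without wild-type MPP+ replicate 1 also called 4 (Orc2, Rfc1, Prim2 and Pole), all with a weaker fall or larger rise in the knockout. For Pcna the difference was log2 0.39 with a 95% interval from 0.18 to 0.60 (adjusted p = 0.0703), and for Rfc1 0.78 with an interval from 0.28 to 1.28 (adjusted p = 0.115). For Rrm2 it was -0.48 with an interval from -0.89 to -0.08 (adjusted p = 0.204), a deeper fall in the knockout. The intervals of Mcm5 (-0.07 to 0.54) and Mcm6 (-0.12 to 0.37) limit any difference to a small part of their MPP+ effects, whereas those of Fen1 (-1.24 to 1.17) and Gins2 (-1.20 to 1.26) leave room for more than a 2-fold difference.

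Per length, the 47 genes in wild type in PBS ranged from 0.597 ± 0.190 FPKM (SD, n = 3) for Orc1 to 49.6 ± 2.77 FPKM for Pcna. After Pcna came Rrm2 (34.2 ± 0.595), Rpa1 (22.5 ± 5.09), Mcm4 (20.7 ± 0.907), Gins4 (18.4 ± 0.514) and Mcm6 (16.6 ± 0.718), where Rpa1, Mcm4 and Gins4 do not differ beyond the spread of Rpa1. At the low end, next to Orc1, stood Mcm10 (1.08 ± 0.114) and Pola2 (1.25 ± 0.0420). In MPP+ Pcna remained highest at 18.5 ± 0.947 FPKM, followed by Mcm7 at 15.7 ± 0.728, Gins4 at 13.7 ± 1.07 and Orc2 at 13 ± 1.20, and Cdc6 was lowest at 0.101 ± 0.0607. Rrm2, second in PBS, stood at 6.80 ± 0.940 FPKM.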

How the data were processed

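RNA-seq of 12 samples in 4 groups was used as deposited, with groups from the sample labels. Gene counts and FPKM values, which relate counts to transcript length and library total, were made by the authors before they were deposited, per the file headers. The submitters' processing notes name the builds GRCm38 and mm10. Which aligner and counter were run, and whether strand was used, is not stated. Counts were fitted with edgeR 4.0.16 (R 4.3.3): a quasi-likelihood model of 4 group means over all 12 samples, TMM factors, and filterByExpr with a minimum count of 10 and a minimum total of 15. This left 21129 of 32742 genes and 8 residual degrees of freedom. P-values were adjusted by Benjamini-Hochberg over all genes tested, with a threshold of 0.05, for 5 contrasts. An SE is the absolute log2 fold change over the square root of F. The fit was tested on simulated counts.

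Levels of a gene between samples are TMM-scaled CPM, and levels between genes are the deposited FPKM. Promoters are RefSeq's on GRCm38.p6, and exon overlaps come from the GENCODE annotation of the same build. Opposite-strand overlaps were also found for Orc6 (6.93%, Vps35), Orc4 (5.98%, Acvr2a), Cdc45 (5.96%, Ufd1), Lig1 (5.79%, Zswim9) and Fen1 (5.37%, Tmem258). Smaller ones were those of Orc4 with Mbd5 (1.82%), Tk1 with Afmid (1.6%) and Mcm7 with Cops6 (1.45%). The 47 members and all gene lists were chosen with earlier results of these data known. Genes were named as those with the largest fall and the largest rise, or smallest fall, of each role or list in wild type, with all MCM2-7 subunits and genes called between genotypes. Alternatives were RLE factors, library totals, DESeq2 1.42.0, other filters, only the groups compared, a replicate block, limma 3.58.1 on log2(FPKM + 1) and log2(FPKM + 0.1), each library left out, and, chosen after seeing the data, both knockout replicates numbered 1 left out, because their Y-linked RNA lay below that of the other knockout libraries. Chtf8, listed under 2 identifiers, was left out. A gene that the naming rule gives is not reported here.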

Additional observations from a re-analysis of the deposited data

Results flagged for a closer look

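Of the pathway and mitosis lists 6 genes were called by the interaction term, none of them among the 47. The test was edgeR's quasi-likelihood test, with 3 samples a group and a threshold of 0.05 on adjusted p. The calls were 4 of 20 mitosis genes and 2 of 33 other nucleotide enzymes, where 1.35% of all genes were called. Of 32 other replication proteins, 25 G1/S regulators and 25 checkpoint and fork repair genes 0 were called. The lists were drawn up with earlier results known. Mki67, the proliferation marker, had an interaction of log2 -1.14 (adjusted p = 0.0122). It stood at 238, 248 and 248 CPM in wild type in PBS and 8.1, 8.01 and 6.37 CPM in MPP+, and at 194, 172 and 197 CPM and then 2.66, 2.19 and 2.99 CPM in the knockout. The fall was thus 32.6-fold in wild type and 71.7-fold in the knockout.

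The mitotic kinase gene Plk1 had an interaction of -1.18 (adjusted p = 0.0175), the checkpoint kinase gene Bub1b -1.02 (adjusted p = 0.0142) and the centromere histone gene Cenpa -1.48 (adjusted p = 0.0268), each with the deeper fall in the knockout. Samhd1, a dNTP hydrolase, had an interaction of -0.54 (adjusted p = 0.0121), with a fall of 1.37-fold in wild type and 1.99-fold in the knockout. Ctps, CTP synthase, had an interaction of -0.58 (adjusted p = 0.0244), with a rise of 1.6-fold in wild type and an adjusted p of 0.302 for the knockout. None of the 6 calls held in every alternative. With both knockout replicates numbered 1 left out, all 6 adjusted p were above the threshold, from 0.085 (Plk1 and Bub1b) to 0.165 (Ctps). Without 1 library, Mki67 and Bub1b kept their calls, Samhd1 lost its call without wild-type PBS replicate 3, and Plk1 without wild-type PBS replicate 2 or 3 or knockout PBS replicate 3. Ctps lost its call without wild-type PBS or MPP+ replicate 2 or 3 or knockout PBS or MPP+ replicate 1 or 3. Cenpa kept its call only without wild-type MPP+ replicate 1 or 3 or knockout PBS replicate 2.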

How the results depend on the processing

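The MPP+ counts moved little: 34 to 39 of the 47 genes fell in wild type and 31 to 36 in the knockout, with 3 to 5 and 4 rising, and no call of any comparison reversed. Of the 6 members not called for MPP+ in wild type, 5 gained a call in some alternative, as did 3 of the 9 in the knockout. Of the called members 4 of 41 in wild type and 3 of 38 in the knockout lost their call in some alternative. The genotype comparisons depended on the setting, and the cause was not tested. In PBS, 8 members were lower with library totals, DESeq2 or limma on log2(FPKM + 1) or log2(FPKM + 0.1), 6 with at least 1 CPM in 3 samples, 5 with only the groups compared, 0 to 4 without 1 library, and 0 without both knockout replicates numbered 1. The 1 higher member became 0 with library totals, no filter, only the groups compared, the replicate block, either limma fit or both of those replicates left out, and 0 to 1 without 1 library. Over all genes, 2323 calls in PBS became 1109 to 2753 without 1 library and 1012 without both. In MPP+, the 7 lower members became 2 with no filter, 1 with only the groups compared, 1 to 9 without 1 library and 1 without both. The 3 higher members became 1, 0 to 4 and 1 under the last 3 of these, and the 3565 calls over all genes became 1968, 2010 to 4746 and 1906. For the interaction, 0 higher members became 4 under DESeq2, 1 with at least 1 CPM, 1 under limma on log2(FPKM + 1) and 0 to 4 without 1 library. Its 285 calls over all genes became 1326 under DESeq2, 148 with no filter, 63 to 1553 without 1 library (1553 without wild-type MPP+ replicate 1) and 12 without both knockout replicates.

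With the replicate block, 37 members fell and 4 rose in wild type, 34 and 4 in the knockout, 3 were lower in PBS, 5 lower and 3 higher in MPP+, and 0 passed the interaction. The deviations of same-numbered samples from their group means correlated at r from -0.0192 to 0.0596 over 18 pairs, none over 0.1. Same-numbered PBS and MPP+ samples of 1 genotype correlated at r from 0.0078 to 0.0516, all above 0. Each PBS library had its highest r, among the MPP+ libraries of its genotype, with the same-numbered one. The labels do not say what a number marks, so the block was not taken as a pairing. These small values cannot decide whether the cultures were matched. The knockout replicates numbered 1 do share low Y-linked RNA, whose origin was not tested. The share of all calls in PBS that were higher was 48.6%, and 35.5% with library totals, 35.7% and 36.3% under limma; of interaction calls it was 44.6%, and 56.8% with no filter. Without the mitochondrial genome in the total, the summed shares were 0.186%, 0.1%, 0.165% and 0.1%, in the order of the 4 groups. With the 50 bases after the start, E2F motifs stood in 38.5% of members and 2.6% of all genes, CCAAT in 41.1% and TTTGAA in 20.2% of all genes. Among the members the SE of the interaction was widest for Gins2 (0.56), Fen1 (0.55) and Cdc6 (0.49).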

Other observations

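All 20 genes of a mitosis list fell with MPP+ in both genotypes, where 28.4% of all genes fell in wild type and 24.7% in the knockout. Their median log2 fold change was -3.20 in wild type and -3.95 in the knockout, where the medians of the 47 replication genes were -1.02 and -1.07. Cenpf, a kinetochore gene, fell 50-fold and 53.6-fold, and Ccnb2, a mitotic cyclin, 29.3-fold and 33.6-fold. Cdk1, the kinase partner of that cyclin, fell least, 2.24-fold and 2.64-fold. In MPP+ 11 of the 20 were lower in the knockout, among them Top2a (log2 -0.93) and Aurkb (-1.12), where 9.00% of all genes were lower. The list was drawn up with earlier results known, and its genes are not independent of each other.

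Marker genes of pericytes and smooth muscle summed to between 3660 and 4010 CPM in wild type in PBS and between 599 and 803 CPM in MPP+. Oligodendrocyte lineage markers summed to between 515 and 534 CPM and then between 142 and 160 CPM, neuron markers to between 460 and 574 CPM and then between 223 and 245 CPM. Endothelial markers summed to between 95.8 and 99.7 CPM and then between 35.8 and 51.7 CPM, and ependymal markers to between 302 and 370 CPM and then between 215 and 232 CPM. Most of several sums came from few genes, as means in wild type in PBS show. Kdr stood at 81.6 CPM, against 0.199 for Pecam1. Stmn2 and Map2 stood at 283 and 216 CPM, against 0.0781 for Rbfox3. Cnp and Olig1 stood at 212 and 193 CPM, against 0.212 for Sox10. Acta2 and Tagln stood at 2340 and 1460 CPM, against 0.0589 for Kcnj8. With MPP+ the ependymal marker Ccdc153 rose, from 5.7 to 12.9 CPM. The sums alone do not show that these cell types were present. Their part in the levels of the replication genes was not tested.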
